A study of Mus musculus with 9 samples.

Results

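A set of 37 mouse genes of germ cell identity, meiosis and the piRNA pathway was followed in cells sorted from neural tube organoids. The 37 were named by symbol and found by Ensembl gene identifier among the 54532 genes of the deposited count table, where all 37 have a row. They fall by role into 9 meiotic entry and germ cell regulators, 7 recombination genes, 11 genes of the synaptonemal complex and the chromosome axis, and 10 piRNA pathway genes. The list was drawn up with results of these libraries known, so the differences among groups described for these genes carry no test. The organoids were grown in Matrigel from single cells of R1, a mouse embryonic stem cell line, here of FoxA2-Venus genotype, in which a yellow-green fluorescent protein reports FoxA2, a transcription factor of the floor plate. Medium was changed on day 2, and cells were sorted by fluorescence 66 h later. Each of 3 groups has 3 biological replicates. SAG GFP+ cells are the bright cells from N2B27 medium with SAG, a small molecule that activates Smoothened in the Hedgehog pathway. RA GFP+ cells are the bright cells from N2B27 medium with all-trans retinoic acid (RA), and RA GFP- cells are the dim cells from the same medium. The series text gives the RA dose as 250 nM and the treatment protocol as 250 µM, which was not settled, and neither a SAG dose nor whether the SAG medium also held RA is given in the sources used here. Dim cells from SAG medium were not analysed here, so SAG GFP+ and RA GFP- cells differ in both sort and medium, which cannot be told apart in that comparison.

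In the mouse, germ cells are set aside early and later enter meiosis, and retinoic acid is known in the gonad as a signal for meiotic entry, acting in part through Stra8. In meiosis, SPO11 cuts DNA, DMC1 repairs the cuts on the homologous chromosome, a cohesin with the kleisin REC8 builds the chromosome axis, and the synaptonemal complex zips paired homologues together. The piRNA pathway loads small RNAs onto PIWI proteins and silences transposons, with Tudor domain proteins as its scaffold. In most body cells such genes are kept silent, many of them by CpG methylation of their promoters and by the Polycomb complex PRC1.6, in which MGA with MAX recognises the letters CACGTG and E2F6 recognises TCCCGC.

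Promoter letters are a property that the choice of genes did not use. RefSeq windows of 300 bases (250 before and 50 after the start, build GRCm38.p6) were at hand for 30 of the 37 genes and for 27025 genes in all. Where a gene had more than 1 window, the first listed was used. CACGTG, searched on both strands (it reads the same on each), stood in 10 of the 30 windows (33.3%), against 7.2% of all windows. TCCCGC or its reverse complement GCGGGA stood in 14 of the 30 (46.7%), against 20.0% of all. Both stood in the 6 windows of Ddx4, Sycp1, Sycp3, Hormad1, Stag3 and Mael (20.0%), against 2.0% of all windows. Neither stood in 12 of the 30 (40.0%), those of Sohlh2, Dazl and Nanos3 among them, against 74.8% of all windows. Matches of both motifs can share at most 1 letter. Retinoic acid response elements, paired binding sites of RA receptors, were also searched and stood in 0 of the 30 windows, against 0.6% of all. The median observed over expected ratio of CpG was 0.702 in the 30 windows and 0.389 in all 27025. Median GC content was 60.5% in the 30 and 52.7% in all. CACGTG and TCCCGC each hold a CG, and no windows of like base content were compared. The part of base content in the motif shares was thus not tested. A match is a description of the letters and does not show that a factor binds there. The windows of 5 of the genes are given 5′ to 3′ along the gene, in lower case with the motifs of either strand in capitals. They are examples and do not stand for the shares among the 30. Those of Ddx4, Hormad1 and Sycp1 hold both motifs, that of Rec8 holds TCCCGC alone, and that of Tdrd12 holds neither.
Ddx4, chr13:112652261-112652560, minus strand: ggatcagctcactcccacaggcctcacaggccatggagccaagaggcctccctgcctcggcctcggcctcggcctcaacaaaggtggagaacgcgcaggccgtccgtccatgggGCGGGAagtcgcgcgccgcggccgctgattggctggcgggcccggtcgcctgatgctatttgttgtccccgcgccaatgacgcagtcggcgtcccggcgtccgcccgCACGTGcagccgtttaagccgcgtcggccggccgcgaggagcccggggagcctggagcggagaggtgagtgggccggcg
Hormad1, chr3:95559427-95559726, plus strand: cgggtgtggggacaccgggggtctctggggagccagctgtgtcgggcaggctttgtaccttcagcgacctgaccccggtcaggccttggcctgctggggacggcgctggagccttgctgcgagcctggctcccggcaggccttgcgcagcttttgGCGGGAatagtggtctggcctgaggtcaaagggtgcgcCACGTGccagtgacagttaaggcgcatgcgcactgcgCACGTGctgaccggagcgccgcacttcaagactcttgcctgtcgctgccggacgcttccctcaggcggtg
Sycp1, chr3:102936051-102936350, minus strand: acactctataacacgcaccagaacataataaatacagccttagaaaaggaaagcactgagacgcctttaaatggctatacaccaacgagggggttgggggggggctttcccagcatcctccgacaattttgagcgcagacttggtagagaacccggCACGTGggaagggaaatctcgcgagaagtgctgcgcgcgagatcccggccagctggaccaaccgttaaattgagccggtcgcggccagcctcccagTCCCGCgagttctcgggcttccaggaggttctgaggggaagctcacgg
Rec8, chr14:55617916-55618215, plus strand: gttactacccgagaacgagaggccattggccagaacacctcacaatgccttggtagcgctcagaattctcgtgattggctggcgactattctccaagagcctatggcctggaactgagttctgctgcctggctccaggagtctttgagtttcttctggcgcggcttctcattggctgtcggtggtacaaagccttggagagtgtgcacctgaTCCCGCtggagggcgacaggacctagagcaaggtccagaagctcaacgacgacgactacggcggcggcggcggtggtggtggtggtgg
Tdrd12, chr7:35537666-35537965, minus strand: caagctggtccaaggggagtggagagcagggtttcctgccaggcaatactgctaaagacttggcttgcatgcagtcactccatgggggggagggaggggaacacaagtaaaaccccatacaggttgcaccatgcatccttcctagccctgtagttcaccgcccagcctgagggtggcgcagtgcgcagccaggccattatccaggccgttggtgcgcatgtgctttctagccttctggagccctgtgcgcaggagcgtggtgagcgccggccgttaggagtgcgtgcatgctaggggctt

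**Figure D1:**
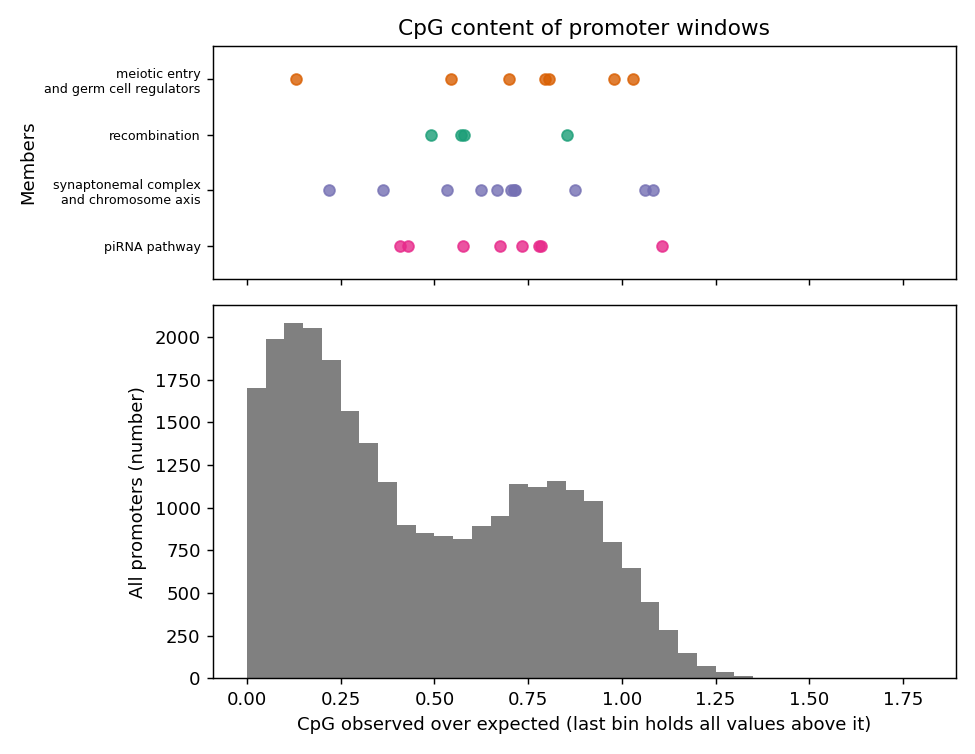
CpG content of the promoter windows, as observed over expected CpG on the horizontal axis. Points above are the 30 windows of germline and meiosis genes by role, and bars below are the numbers of all 27025 windows in bins; the member median was 0.702 and that of all windows 0.389.

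The 9 libraries held 25281871 to 29763765 counts. Levels are given as CPM, the counts in each 1000000 of the library, where library size is the total times its TMM factor. Foxa2 averaged 247.8 ± 68.2 CPM in SAG GFP+ cells, 158.0 ± 25.8 CPM in RA GFP+ cells and 2.11 ± 0.669 CPM in RA GFP- cells (SD, n = 3 each), as the sort by its reporter selects. Of 13 pluripotent cell markers, 11 were lower in RA GFP+ than in RA GFP- cells, and their summed level ran from 75.4 to 236 CPM in SAG GFP+, 87.4 to 103 CPM in RA GFP+ and 1069 to 1629 CPM in RA GFP- libraries. None of these 13 markers was at 0 over a group. SAG GFP+ replicate 1 stood apart in this list, with a summed level of 236 CPM beside 75.4 and 93.3 CPM in the other SAG libraries. The summed level of 8 markers of somatic cells of testis and ovary was 27.3 to 64.5 CPM in SAG GFP+, 42.6 to 49.1 CPM in RA GFP+ and 24.1 to 32.7 CPM in RA GFP- libraries. In that list the follicle-stimulating hormone receptor gene Fshr had 0 counts in all 9 libraries, the steroidogenic Cyp17a1 had 2 counts in all, both in RA GFP- cells, and most of the sum was Sox9, which neural tissue also expresses.

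The germline and meiosis genes stood far lower under SAG than under RA as a set, while the GFP+ and GFP- cells under RA differed gene by gene in both directions. Their summed level was 114 to 133 CPM in SAG GFP+, 320 to 394 CPM in RA GFP+ and 277 to 435 CPM in RA GFP- libraries. The SAG libraries lie below all RA libraries, and both RA groups overlap. A mean of at least 1 CPM was reached by 15 of the 37 genes in SAG GFP+, 24 in RA GFP+ and 27 in RA GFP- cells. In SAG GFP+ cells, 4 genes (Dazl, Sycp1, Tex101 and Asz1) had 0 counts, which over the group allows a level of up to 0.039 CPM (3 counts, counting error only). In bulk RNA of sorted cells, fewer cells of a type and less RNA per cell cannot be told apart.

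**Figure D2:**
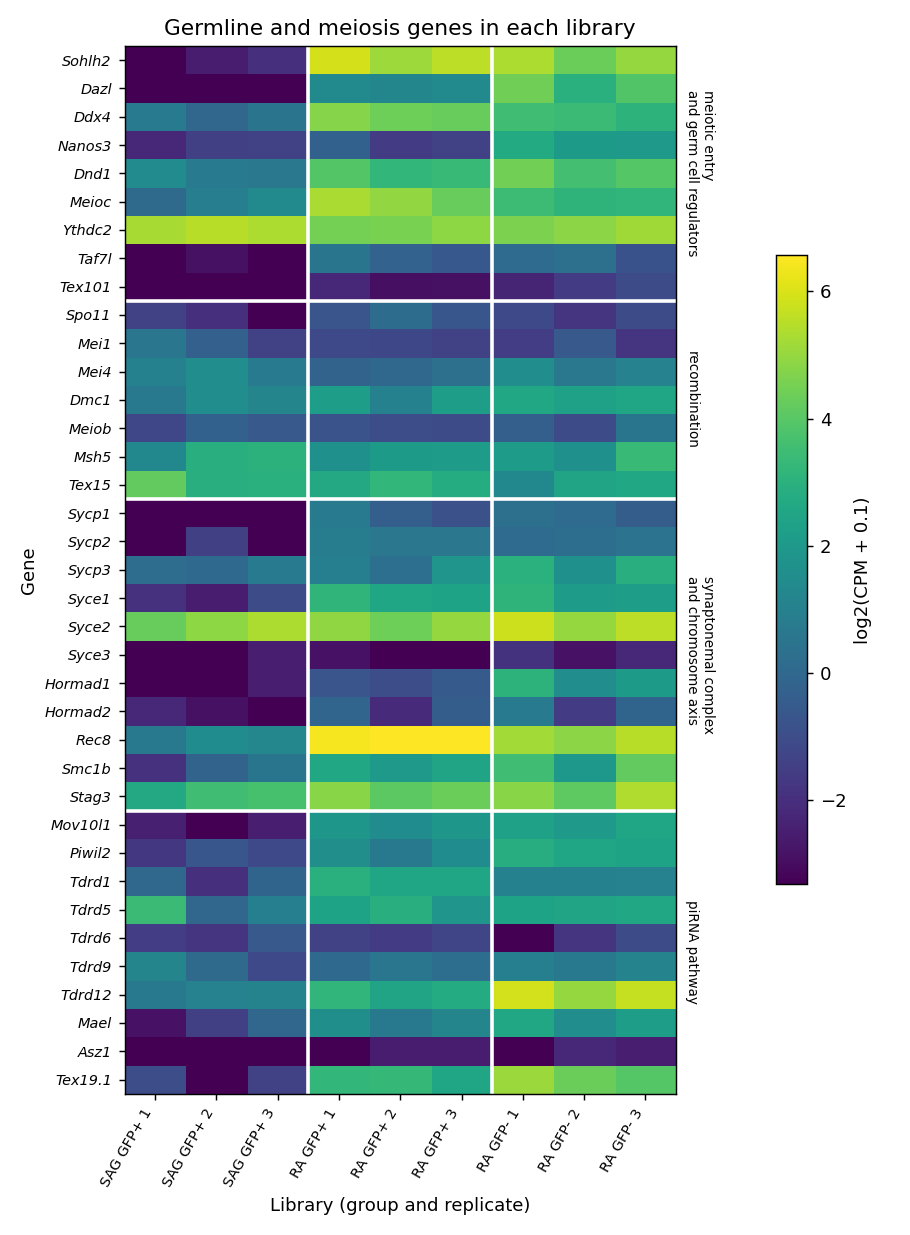
Level of each of the 37 genes (rows, grouped by role) in each of the 9 libraries (columns, in 3 groups), as log2(CPM + 0.1). The SAG GFP+ columns are darkest for most regulators, axis and piRNA genes, while Ythdc2, Syce2, Msh5 and Tex15 are bright in all groups.

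In the fit across 16772 genes, a gene was called where its Benjamini-Hochberg adjusted p by edgeR's quasi-likelihood test was under 0.05, and 33 of the 37 genes had counts enough to enter. A gene that entered only through the group where it is high had to differ, so the counts are a description. For SAG GFP+ over RA GFP+ cells, 2 of the 33 were called higher, beside 9.78% of all tested genes, and 20 were called lower, beside 14.8%. The groups did not overlap for 2 genes that stood higher (19.8% of all genes) and 21 that stood lower (23.1%). The median log2 fold change of the 33 was -2.62, also with genes of 3 or fewer counts at their bound or count ratio, and that of all tested genes was -0.02. For RA GFP+ over RA GFP- cells, 4 were called higher (8.49% of all genes) and 7 lower (8.43%), with groups apart for 7 that stood higher (18.3%) and 10 that stood lower (18.1%), and the median was -0.54. Without RA GFP- replicate 1 or without RA GFP+ replicate 2, 4 were called lower. With the replicate number as a block in the RA libraries alone, 6 were called higher and 12 lower. The genes that the block added were Sohlh2, Dnd1, Mei4, Tex15, Syce2, Smc1b and Mael. Values of single genes below come from the fit of all libraries without a block, unless said otherwise, and so do not use the pairing of the RA libraries. For SAG GFP+ over RA GFP- cells, 2 were called higher (12.0%) and 23 lower (16.5%), with groups apart for 2 that stood higher (19.0%) and 23 that stood lower (22.1%), and the median was -3.13. The first and the last of these comparisons share the SAG libraries, and the RA GFP+ and RA GFP- libraries also serve in 2 comparisons each.

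Among the regulators of germ cells and meiotic entry, most had a lower mean in SAG GFP+ cells than in both RA groups. Of these, Ddx4, Meioc and Dnd1 still averaged 1.25, 1.77 and 1.86 CPM in SAG GFP+ cells. Sohlh2, a basic helix-loop-helix factor of early spermatogonia and oocytes, had 0, 0.0749 and 0.156 CPM in SAG GFP+, 61.1, 34.2 and 48.2 CPM in RA GFP+, and 40.6, 20.5 and 31.7 CPM in RA GFP- cells. All SAG libraries were far below the lowest RA library. The RA groups overlapped, while each RA GFP+ library was above the RA GFP- library of the same number. Its log2 fold change was -9.18 (SE 0.52) for SAG GFP+ over RA GFP+ and 0.63 (SE 0.29) for RA GFP+ over RA GFP- cells. Dazl, an RNA-binding protein that licenses germ cells for gametogenesis, had 0, 0 and 0 CPM in SAG GFP+, 2.59, 2.22 and 2.58 CPM in RA GFP+, and 21.3, 7.70 and 14.7 CPM in RA GFP- cells. The 3 groups were fully apart. Dazl was at least 62.9-fold lower in SAG GFP+ than in RA GFP+ cells and at least 377.5-fold lower than in RA GFP- cells. These bounds allow for counting error in SAG GFP+ cells only, not for the spread between RA libraries. Its log2 fold change between RA GFP+ and RA GFP- cells was -2.56 (SE 0.38). Without RA GFP- replicate 1, the highest library, that value was -2.17.

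Ddx4, the RNA helicase known as VASA that marks germ cells, had 1.59, 0.862 and 1.28 CPM in SAG GFP+, 27.2, 20.8 and 19.0 CPM in RA GFP+, and 11.6, 10.6 and 8.26 CPM in RA GFP- cells. Here the order of both RA groups was the opposite of that of Dazl, with every RA GFP+ library above every RA GFP- library (log2 fold change 1.14, SE 0.24). SAG GFP+ libraries stood below all of them (log2 fold change -4.16, SE 0.28 against RA GFP+). Meioc, which with Ythdc2 promotes entry into and progress through meiotic prophase in the mouse, had 0.978, 1.798 and 2.53 CPM in SAG GFP+, 39.3, 30.6 and 19.18 CPM in RA GFP+, and 11.02, 8.61 and 9.10 CPM in RA GFP- cells. The same order held, with groups apart in each comparison (log2 fold change 1.63, SE 0.32 for RA GFP+ over RA GFP-, log2 fold change -4.06, SE 0.36 for SAG GFP+ over RA GFP+). Ythdc2, an RNA helicase that reads methylated RNA and is the partner of Meioc, had 38.5, 45.7 and 41.0 CPM in SAG GFP+, 22.6, 23.4 and 29.4 CPM in RA GFP+, and 24.4, 28.5 and 35.8 CPM in RA GFP- cells. It is the exception among the regulators, with SAG libraries above all RA libraries by log2 fold change 0.73, SE 0.17 against RA GFP+ and log2 fold change 0.50, SE 0.17 against RA GFP- cells. The call against RA GFP- cells ended without any one of replicates 2 and 3 of SAG GFP+, 1 and 2 of RA GFP+, and 1 and 2 of RA GFP- cells.

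Nanos3, a translational repressor that keeps primordial germ cells alive, had 0.122, 0.262 and 0.273 CPM in SAG GFP+, 0.745, 0.235 and 0.279 CPM in RA GFP+, and 6.53, 4.12 and 3.96 CPM in RA GFP- cells. It stood high in RA GFP- cells alone, and SAG GFP+ and RA GFP+ libraries overlapped (log2 fold change -3.54, SE 0.49 for RA GFP+ over RA GFP-, log2 fold change -0.90, SE 0.56 for SAG GFP+ over RA GFP+). Without RA GFP+ replicate 1, the first of these was -4.22 and the second was -0.22. Dnd1, an RNA-binding partner of NANOS proteins, had 2.61, 1.54 and 1.44 CPM in SAG GFP+, 14.9, 9.17 and 10.2 CPM in RA GFP+, and 21.6, 12.1 and 15.3 CPM in RA GFP- cells. The RA groups overlapped and the SAG libraries stood below both (log2 fold change -2.62, SE 0.33 against RA GFP+). Of its exon bases 5.8% overlap Wdr55 on the opposite strand, and the strand setting of the counting is not given in the sources used here. Taf7l, a germ cell variant of a subunit of the general transcription factor TFIID, and Tex101, a germ cell surface protein, did not reach 1 CPM in any group. Taf7l had 1 count over SAG GFP+, 73 over RA GFP+ and 70 over RA GFP- cells, a ratio for RA GFP+ over SAG GFP+ of 66.9 (exact 95% interval 11.6 to 2678, counting error only). Tex101 had 0 counts over SAG GFP+, 5 over RA GFP+ and 19 over RA GFP- cells.

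**Figure D3:**
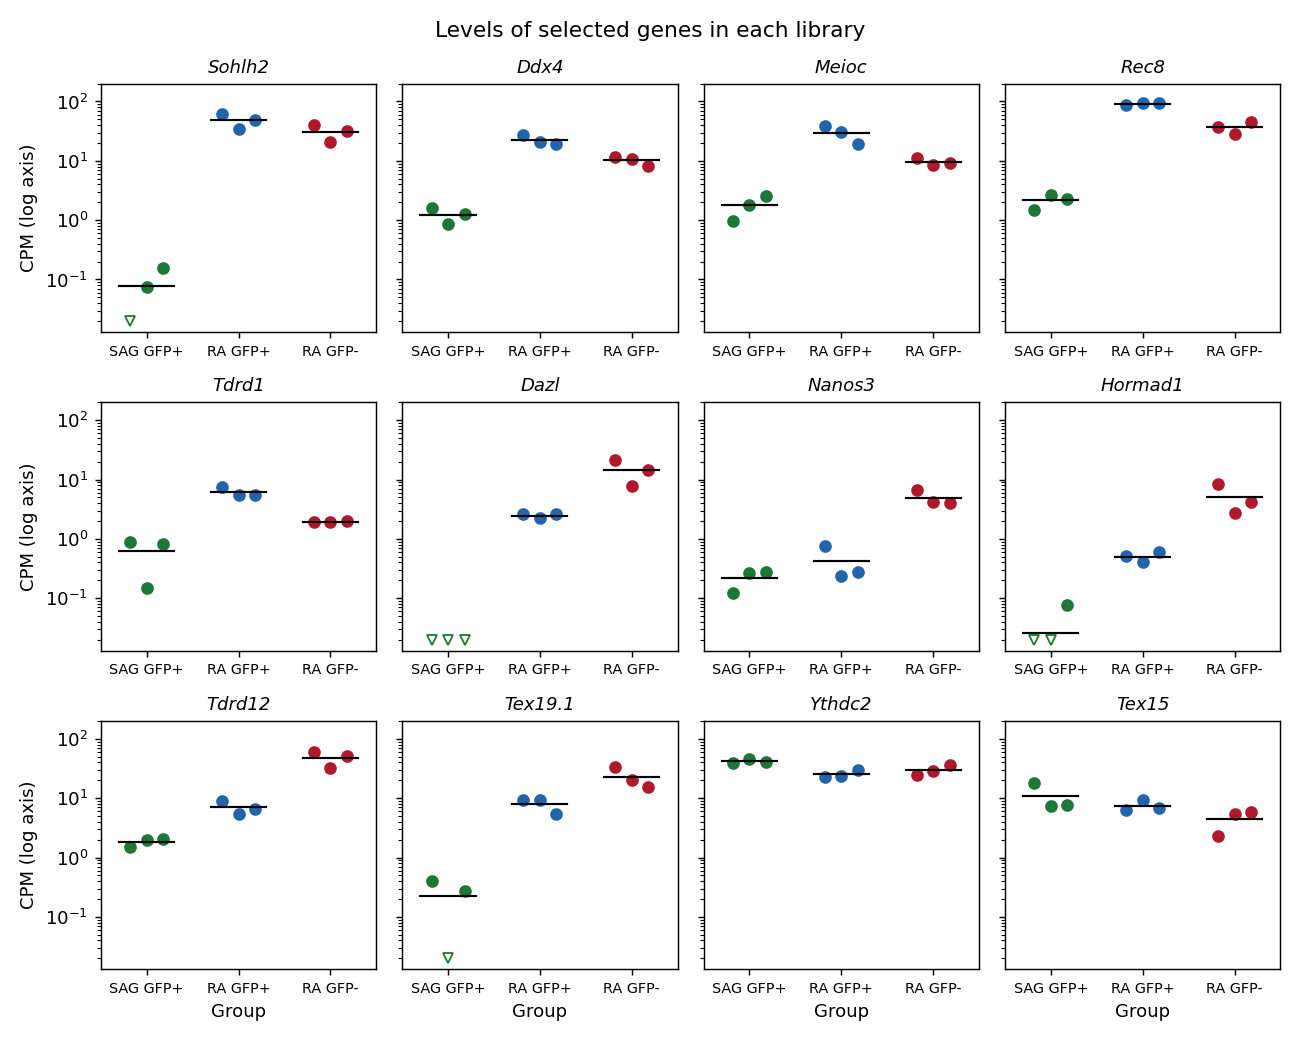
CPM of 12 of the genes in each library (log axis), with SAG GFP+, RA GFP+ and RA GFP- from left to right, points for libraries, lines for means, and open triangles at the lower edge for libraries with 0 counts. The upper row and Tdrd1 stand highest in RA GFP+ cells, Dazl, Nanos3, Hormad1, Tdrd12 and Tex19.1 in RA GFP- cells, and Ythdc2 and Tex15 in SAG GFP+ cells.

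Of the 7 recombination genes, 1 was called higher and 0 lower for SAG GFP+ over RA GFP+ cells (9.78% and 14.8% of all tested genes). For SAG GFP+ over RA GFP- cells, 1 was called higher and 1 lower (12.0% and 16.5%). None of the 7 was called between RA GFP+ and RA GFP- cells in the fit of all libraries (8.49% and 8.43%). With 7 genes, such counts do not set them apart from all tested genes. The summed level of the 7 was 20.3 to 25.9 CPM in SAG GFP+, 15.9 to 17.9 CPM in RA GFP+ and 15.9 to 25.2 CPM in RA GFP- libraries. Between the RA groups, the replicate block called Mei4 and Tex15, and DESeq2 called Mei4. Spo11, the enzyme that makes the meiotic breaks, stayed low, with 11 counts over SAG GFP+, 59 over RA GFP+ and 25 over RA GFP- cells. Mei1, needed in mice for those breaks, had 60 counts over SAG GFP+, 27 over RA GFP+ and 27 over RA GFP- cells. Meiob, a single-strand DNA-binding protein, had 43 counts over SAG GFP+, 35 over RA GFP+ and 65 over RA GFP- cells. Mei4, a partner of the break machinery, had 1.96, 2.77 and 1.56 CPM in SAG GFP+, 0.784, 0.874 and 1.15 CPM in RA GFP+, and 2.75, 1.45 and 1.98 CPM in RA GFP- cells. SAG libraries stood above RA GFP+ libraries (log2 fold change 1.16, SE 0.39) and overlapped RA GFP- libraries, and the call against RA GFP+ was lost under a replicate block, without the filter on low counts, or without any one of 7 libraries (SAG GFP+ replicates 1 and 2, all RA GFP+ replicates, and RA GFP- replicates 2 and 3).

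Dmc1, the meiotic recombinase, had 1.51, 2.77 and 2.14 CPM in SAG GFP+, 4.55, 1.95 and 4.43 CPM in RA GFP+, and 5.93, 4.92 and 5.52 CPM in RA GFP- cells. Each SAG library was below each RA GFP- library (log2 fold change -1.35, SE 0.36, a call that ended without SAG GFP+ replicate 3 or RA GFP- replicate 1), and the SAG and RA GFP+ ranges overlapped. Msh5, which stabilises crossover intermediates, had 2.32, 7.42 and 8.14 CPM in SAG GFP+, 3.02, 4.03 and 4.25 CPM in RA GFP+, and 4.31, 3.01 and 10.01 CPM in RA GFP- cells. All 3 groups overlapped, and 2 libraries, RA GFP- replicate 3 and SAG GFP+ replicate 3, were highest. Tex15, needed for repair of meiotic breaks and for transposon silencing in the male germ line, had 18.1, 7.38 and 7.59 CPM in SAG GFP+, 6.23, 9.31 and 6.80 CPM in RA GFP+, and 2.33, 5.37 and 5.82 CPM in RA GFP- cells. SAG libraries stood above RA GFP- libraries (log2 fold change 1.29, SE 0.42), with SAG GFP+ replicate 1 far above the others, and without it the value was 0.76 and the call was lost. The call was also lost without RA GFP- replicate 1 or 2, and in the fits of both groups alone.

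The axis and synaptonemal complex genes ranged from the highest levels of the set to nearly none. Rec8, the meiotic kleisin of cohesin, had 1.51, 2.70 and 2.26 CPM in SAG GFP+, 87.0, 94.5 and 93.4 CPM in RA GFP+, and 36.7, 28.4 and 45.1 CPM in RA GFP- cells. Per kilobase of exon it was the highest of the 37 genes in RA GFP+ cells, at 31.2 RPKM (CPM per kilobase of exon), the 3 groups were fully apart, and replicates lay close together (log2 fold change 1.32, SE 0.20 for RA GFP+ over RA GFP-, log2 fold change -5.40, SE 0.24 for SAG GFP+ over RA GFP+). Its gene lies at chr14:55618037-55625395 on the plus strand (GRCm38). Smc1b, the meiotic variant of the SMC1 cohesin subunit, had 0.163, 0.787 and 1.32 CPM in SAG GFP+, 5.88, 3.97 and 5.41 CPM in RA GFP+, and 11.5, 3.77 and 18.04 CPM in RA GFP- cells. Its RA groups overlapped and SAG stood below both (log2 fold change -2.73, SE 0.64 against RA GFP+). Stag3, the meiotic stromal antigen of the same cohesin, had 6.23, 11.4 and 12.8 CPM in SAG GFP+, 27.9, 16.7 and 20.3 CPM in RA GFP+, and 27.5, 17.3 and 41.3 CPM in RA GFP- cells. The SAG libraries were below all RA libraries, by less than for Rec8 (log2 fold change -1.09, SE 0.34 against RA GFP+), and that call ended without SAG GFP+ replicate 1 or 2, RA GFP+ replicate 1 or 3, or RA GFP- replicate 1.

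Hormad1, a HORMA domain protein that recruits the break and pairing machinery to the axis, had 0, 0 and 0.0779 CPM in SAG GFP+, 0.510, 0.403 and 0.593 CPM in RA GFP+, and 8.33, 2.74 and 4.11 CPM in RA GFP- cells. RA GFP- libraries were above all others (log2 fold change -3.33, SE 0.55 for RA GFP+ over RA GFP-, and -2.75 without RA GFP- replicate 1). Over SAG GFP+ cells it had 2 counts, against 42 in RA GFP+ cells, a ratio for RA GFP+ over SAG GFP+ of 19.25 (exact 95% interval 5.01 to 164.1, counting error only). Of its stretches of 50 bases, 22.9% also occur in the transcript of Gm15529, so part of its reads is uncertain. Hormad2, its relative, reached 1 CPM in no group and had 4 counts over SAG GFP+, 44 over RA GFP+ and 72 over RA GFP- cells. Sycp2, a lateral element protein, had 0, 0.262 and 0 CPM in SAG GFP+, 1.72, 1.41 and 1.43 CPM in RA GFP+, and 0.988, 1.10 and 1.26 CPM in RA GFP- cells. Its RA GFP+ libraries were just above the RA GFP- libraries (log2 fold change 0.45, SE 0.63, not called), and in SAG GFP+ cells 1 library held all 7 counts.

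Sycp3, the other lateral element protein, had 1.06, 0.937 and 1.64 CPM in SAG GFP+, 1.84, 1.11 and 3.45 CPM in RA GFP+, and 7.94, 3.05 and 7.19 CPM in RA GFP- cells. It was called lower in RA GFP+ than in RA GFP- cells (log2 fold change -1.50, SE 0.47) although 1 RA GFP+ library overlapped, and the call was lost in 7 of 16 alternatives. Of its exon bases 52.22% overlap Chpt1 on the opposite strand, which has 6046 counts over all libraries against 766 for Sycp3, so its level is uncertain. Sycp1, the transverse filament that bridges homologues, did not reach 1 CPM in any group. It had 0 counts over SAG GFP+, 74 over RA GFP+ and 76 over RA GFP- cells. That is at least 22.6-fold lower in SAG GFP+ than in RA GFP+ cells (counting error only). Syce1, a central element protein, had 0.163, 0.0749 and 0.389 CPM in SAG GFP+, 8.86, 5.75 and 5.23 CPM in RA GFP+, and 8.47, 4.34 and 4.61 CPM in RA GFP- cells. Its RA groups overlapped, and SAG GFP+ libraries lay below both (log2 fold change -4.96, SE 0.53 against RA GFP+). Syce2, another central element protein, had 19.104, 29.4 and 40.2 CPM in SAG GFP+, 30.5, 20.9 and 32.1 CPM in RA GFP+, and 55.9, 31.7 and 48.0 CPM in RA GFP- cells. It was high in all 9 libraries, and the groups overlapped. The fit of all libraries did not call it in any comparison, while the replicate block called it between RA GFP+ and RA GFP- cells and the fit without the low-count filter called it for both GFP+ groups relative to RA GFP- cells. Syce3, a further one, had 2 counts over SAG GFP+, 1 over RA GFP+ and 9 over RA GFP- cells.

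The piRNA pathway genes summed to a higher level in RA GFP- cells than in either GFP+ group, and 2 genes, Tdrd12 and Tex19.1, carried most of that sum. Their summed level was 4.94 to 16.1 CPM in SAG GFP+, 31.1 to 41.9 CPM in RA GFP+ and 74.1 to 120 CPM in RA GFP- libraries, fully apart. Without these 2 genes the other 8 summed to 2.96 to 14.2 CPM in SAG GFP+, 18.9 to 23.4 CPM in RA GFP+ and 21.5 to 26.97 CPM in RA GFP- libraries, so that the RA groups overlapped. Tdrd12, a Tudor domain protein needed for secondary piRNAs, had 1.51, 1.99 and 2.06 CPM in SAG GFP+, 9.09, 5.34 and 6.70 CPM in RA GFP+, and 59.3, 32.2 and 51.8 CPM in RA GFP- cells. The 3 groups were fully apart (log2 fold change -2.76, SE 0.27 for RA GFP+ over RA GFP-, log2 fold change -1.92, SE 0.28 for SAG GFP+ over RA GFP+). Tex19.1, which restrains retrotransposons in germ cells, placenta and pluripotent cells and is counted here with the piRNA genes, had 0.407, 0 and 0.273 CPM in SAG GFP+, 9.33, 9.41 and 5.51 CPM in RA GFP+, and 33.8, 20.3 and 15.2 CPM in RA GFP- cells. The same order held (log2 fold change -1.52, SE 0.44 and log2 fold change -5.15, SE 0.60 in the same comparisons), and the first of these calls ended without RA GFP- replicate 1 or 2 or without any one RA GFP+ replicate.

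Piwil2, a PIWI protein known as MILI, had 0.204, 0.524 and 0.350 CPM in SAG GFP+, 2.86, 1.48 and 2.72 CPM in RA GFP+, and 6.95, 5.64 and 5.29 CPM in RA GFP- cells. RA GFP- libraries stood above RA GFP+ libraries (log2 fold change -1.34, SE 0.36, a call that ended without RA GFP- replicate 1 or 2 or RA GFP+ replicate 2), and SAG libraries stood below both. Mov10l1, the helicase that feeds precursors into the pathway, had 0.0815, 0 and 0.0779 CPM in SAG GFP+, 3.65, 2.72 and 3.63 CPM in RA GFP+, and 5.01, 3.96 and 5.56 CPM in RA GFP- cells. SAG GFP+ cells had 4 counts in all, against 278 in RA GFP+ cells (log2 fold change -5.88, SE 0.54). Mael, a factor of transposon silencing, had 0.0407, 0.262 and 0.856 CPM in SAG GFP+, 2.94, 1.51 and 2.16 CPM in RA GFP+, and 6.002, 2.78 and 4.61 CPM in RA GFP- cells. Its RA groups overlapped by 1 library and SAG stood below both (log2 fold change -2.49, SE 0.67 against RA GFP+, a call that ended without RA GFP+ replicate 1 or SAG GFP+ replicate 2).

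Tdrd1, a Tudor protein that binds MILI, was the piRNA gene that went the other way, with 0.896, 0.150 and 0.818 CPM in SAG GFP+, 7.56, 5.44 and 5.51 CPM in RA GFP+, and 1.91, 1.94 and 1.98 CPM in RA GFP- cells. RA GFP+ libraries stood above all others (log2 fold change 1.67, SE 0.44 over RA GFP-), although the call ended without any one of the RA GFP- replicates or without RA GFP+ replicate 1 or 2. Tdrd5, needed for the cytoplasmic granules of male germ cells, had 10.6, 0.862 and 1.83 CPM in SAG GFP+, 5.21, 7.29 and 3.45 CPM in RA GFP+, and 5.26, 5.41 and 6.01 CPM in RA GFP- cells. The SAG range covered both RA ranges because of replicate 1, and without that library the log2 fold change for SAG GFP+ over RA GFP+ was -1.96, against -0.27 (SE 0.68) with it. Tdrd9, a Tudor helicase, had 2.16, 0.974 and 0.350 CPM in SAG GFP+, 0.941, 1.38 and 1.08 CPM in RA GFP+, and 1.84, 1.49 and 2.02 CPM in RA GFP- cells. Groups overlapped between SAG and each RA group, and RA GFP- libraries stood above RA GFP+ libraries without a call. Tdrd6, a Tudor protein of the chromatoid body, had 26 counts over SAG GFP+, 23 over RA GFP+ and 15 over RA GFP- cells. Asz1, a mitochondrial scaffold of the pathway, had 0 counts over SAG GFP+, 4 over RA GFP+ and 5 over RA GFP- cells.

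**Figure D4:**
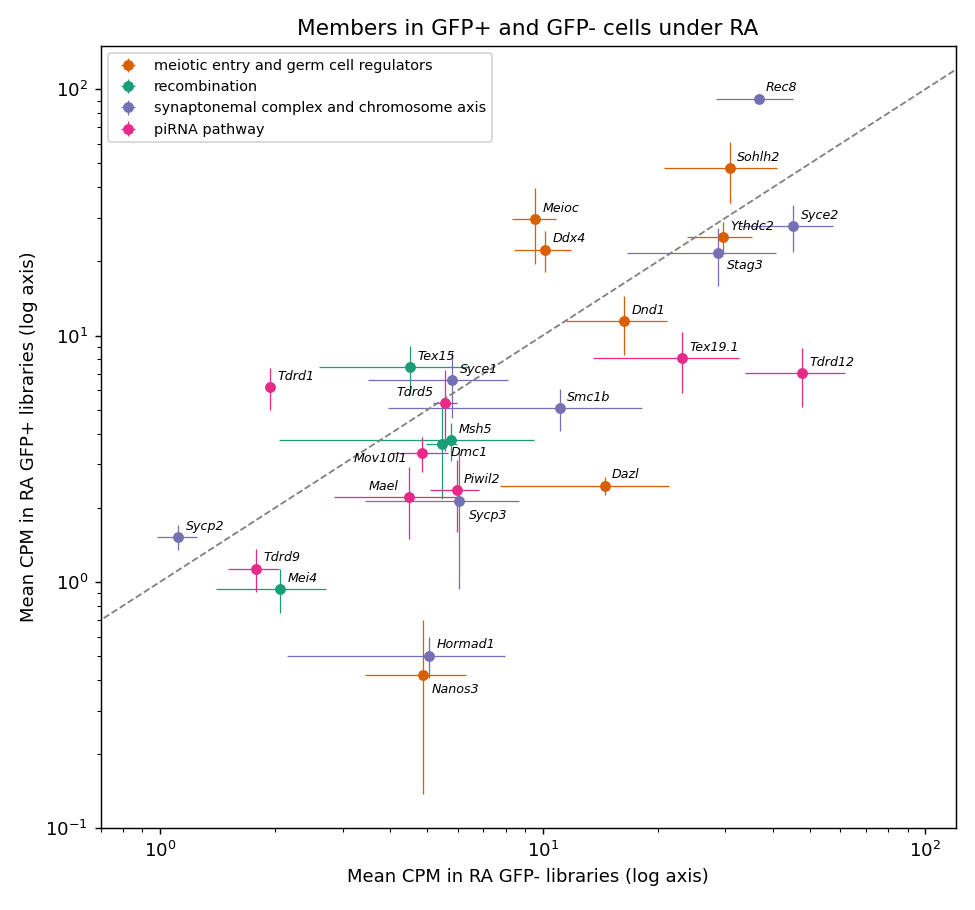
Mean CPM in RA GFP+ libraries (vertical) against RA GFP- libraries (horizontal), log axes, for the 27 genes that reached 1 CPM in some group, coloured by role, with SD over 3 libraries as bars and equality as a dashed line. Rec8, Meioc, Ddx4 and Tdrd1 lie above the line, and Tdrd12, Dazl, Nanos3, Hormad1 and Tex19.1 lie well below it.

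Markers of other cell types also differed among the groups. Between RA GFP+ and RA GFP- cells, where the pluripotent markers also differed, Dppa3 (Stella), a marker of germ cells and naive pluripotent cells, averaged 1.53 ± 0.641 CPM in RA GFP+ and 40.1 ± 14.7 CPM in RA GFP- cells, and Tfap2c, a factor of germ cell specification, averaged 10.2 ± 2.88 CPM in RA GFP+ and 103.8 ± 19.3 CPM in RA GFP- cells (SD, n = 3 each). Prdm1 (BLIMP1), another such factor that endoderm and other lineages also use, averaged 94.3 ± 23.7 CPM in RA GFP+ and 24.9 ± 0.941 CPM in RA GFP- cells. Kit, a further marker on the germ cell list, averaged 93.9 ± 22.3 CPM in SAG GFP+, 67.0 ± 8.37 CPM in RA GFP+ and 91.4 ± 30.4 CPM in RA GFP- cells. The groups overlapped for Kit, and it was not called between the RA groups. The other listed germ cell markers, Nanos3, Dnd1, Ddx4 and Dazl, are given above. Of 7 floor plate markers, 7 were higher in RA GFP+ than in RA GFP- cells. Foxa2 is 1 of these 7, and its direction was fixed by the sort. Of 6 endoderm markers tested 4 were higher, as were 4 of 8 mesenchyme markers (1 lower). Lower were 8 of 10 neural progenitor markers and 7 of 8 neuron markers (1 neuron marker was higher). Over all tested genes, 8.49% were higher and 8.43% lower there, and 9.78% were higher and 14.8% lower for SAG GFP+ over RA GFP+ cells. Between SAG GFP+ and RA GFP+ cells, the ranges of the summed pluripotent markers overlapped (75.4 to 236 CPM against 87.4 to 103 CPM), with 3 of the 13 called higher and 5 lower under SAG. Neural progenitor markers were higher for 8 of 10 and lower for 1, and neuron markers were higher for 7 of 8. Of the endoderm markers tested, 4 of 6 were lower under SAG and 1 was higher, and 3 of 8 mesenchyme markers and 3 of 7 floor plate markers were lower (1 floor plate marker was higher).

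In summed level, neural progenitor markers ran from 1806 to 2222 CPM in SAG GFP+, 777 to 1315 CPM in RA GFP+ and 2075 to 2536 CPM in RA GFP- libraries. Neuron markers ran from 353 to 598 CPM in SAG GFP+, 80.4 to 91.1 CPM in RA GFP+ and 289 to 412 CPM in RA GFP- libraries. Floor plate markers ran from 884 to 1200 CPM in SAG GFP+, 762 to 1219 CPM in RA GFP+ and 187 to 266 CPM in RA GFP- libraries. This sum includes Foxa2, by whose reporter the cells were sorted, at means of 247.8, 158.0 and 2.11 CPM. Endoderm markers ran from 37.4 to 79.4 CPM in SAG GFP+, 63.0 to 103 CPM in RA GFP+ and 37.5 to 42.9 CPM in RA GFP- libraries, and of these 8, Afp had 0 counts in SAG GFP+ and RA GFP- cells, Apoa1 in SAG GFP+ cells and Ttr in RA GFP- cells. Most of this sum in SAG GFP+ and RA GFP- cells was Cxcr4. It averaged 54.6 CPM in SAG GFP+, 22.1 CPM in RA GFP+ and 33.8 CPM in RA GFP- cells, beside mean sums of 60.3, 84.5 and 39.4 CPM. Cxcr4 was thus lowest in the group where the sum was highest. Sox17, an endoderm factor, averaged 0.424 ± 0.435 CPM in SAG GFP+, 46.3 ± 10.6 CPM in RA GFP+ and 1.33 ± 0.353 CPM in RA GFP- cells (SD, n = 3 each). Mesenchyme markers ran from 34.3 to 47.8 CPM in SAG GFP+, 49.0 to 75.2 CPM in RA GFP+ and 17.97 to 24.2 CPM in RA GFP- libraries. The part of these cell types in the differences of the germline and meiosis genes was not tested.

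Companion genes of the same pathways, listed by function with earlier results of these libraries known, were read from the same fit. As for the 37 genes, many that were low under SAG entered the fit through the RA groups where they are high. The counts, and the edgeR adjusted p of each companion gene named from here on, are thus a description and not a test. The counts are to be read beside the shares over all tested genes (9.78% higher and 14.8% lower for SAG GFP+ over RA GFP+ cells, 8.49% higher and 8.43% lower for RA GFP+ over RA GFP- cells). These shares are for the fit without a block. The replicate block in the RA libraries alone called 2615 genes higher and 2625 lower, so counts under the block are not comparable with these shares. Of 24 other meiosis genes tested (of 35 listed), 1 rose and 10 fell in SAG GFP+ relative to RA GFP+ cells, and 1 rose and 5 fell in RA GFP+ relative to RA GFP- cells, where a replicate block called 10 in all and 3 were called without RA GFP+ replicate 2. Stra8, the gatekeeper of meiotic entry induced by RA, averaged 0.103 ± 0.0581 CPM in SAG GFP+, 241.7 ± 72.0 CPM in RA GFP+ and 140.1 ± 6.79 CPM in RA GFP- cells (SD, n = 3 each). Its log2 fold change was -11.12 (SE 0.34, edgeR adjusted p = 1.78e-08) for SAG GFP+ over RA GFP+ cells and 0.79 (SE 0.19, adjusted p = 0.0127) for RA GFP+ over RA GFP- cells. The second call ended when replicate 2 of RA GFP+ cells was left out (0.52, adjusted p = 0.056) and likewise for replicate 2 of RA GFP- cells (adjusted p = 0.0508).

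Under SAG, Tex14, needed for the bridges between germ cells, also fell relative to RA GFP+ cells (log2 fold change -4.09, SE 0.36, edgeR adjusted p = 2.08e-05). Tex11, an X-linked crossover factor, had 0 counts against 342, at least 104.5-fold lower (counting error only). Prdm9, which places recombination hotspots, rose (log2 fold change 0.89, SE 0.30, adjusted p = 0.0471), and this call ended in 10 of 16 alternatives with adjusted p up to 0.18. In RA GFP+ relative to RA GFP- cells, Rec114, of the break machinery, fell (-2.42, SE 0.47, adjusted p = 0.00436), as did Hsf2bp, which works with BRCA2 in meiosis (-1.84, SE 0.41, adjusted p = 0.00945). Tex14 fell as well (-1.32, SE 0.30, adjusted p = 0.00962), a call that ended without RA GFP+ replicate 2 (adjusted p = 0.0524).

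Of 16 other piRNA genes tested (of 20), 2 rose and 8 fell in SAG GFP+ relative to RA GFP+ cells. Rnf17, a Tudor protein, fell (log2 fold change -2.61, SE 0.22, edgeR adjusted p = 1.54e-05), as did Stk31 (-5.98, SE 0.65, adjusted p = 6.68e-05) and Gpat2 (-3.52, SE 0.40, adjusted p = 9.74e-05), a mitochondrial acyltransferase-like protein of the pathway. Tdrkh, a Tudor protein of mitochondria, rose (1.13, SE 0.31, adjusted p = 0.0192), and so did Mybl1, a transcription factor of piRNA clusters in the testis (0.86, SE 0.25, adjusted p = 0.0272). Both calls ended without any one of RA GFP+ replicates 1 and 2 or SAG GFP+ replicates 2 and 3, and that of Mybl1 also without RA GFP+ replicate 3, with adjusted p up to 0.0794 for Tdrkh and 0.104 for Mybl1. In RA GFP+ relative to RA GFP- cells, edgeR called 0 of the 16, with 6 at an unadjusted p under 0.05, DESeq2 called 2, and a replicate block called 6.

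Of 20 other germ cell regulators tested (of 28 in the table), 0 rose and 14 fell in SAG GFP+ relative to RA GFP+ cells, where 15 had an unadjusted p under 0.05. Dmrt1, a sex determination and germ cell factor, averaged 0.514 ± 0.268 CPM in SAG GFP+ and 61.8 ± 14.9 CPM in RA GFP+ cells (log2 fold change -6.91, SE 0.32, edgeR adjusted p = 2.51e-07). Prdm1 fell (-3.80, SE 0.20, adjusted p = 7.10e-07), as did Usp26, an X-linked ubiquitin protease of the testis (-3.59, SE 0.23, adjusted p = 3.00e-06). In RA GFP+ relative to RA GFP- cells, 2 rose and 6 fell, and a replicate block called 13 in all. Prdm1 rose (1.92, SE 0.18, adjusted p = 4.73e-05) and so did Usp26 (0.93, SE 0.21, adjusted p = 0.00904), the call of Usp26 ending without RA GFP+ replicate 1 (adjusted p = 0.0517). Dppa3 fell (-4.71, SE 0.42, adjusted p = 3.49e-05), as did Prdm14, a germ cell and pluripotency factor (-4.71, SE 0.37, adjusted p = 4.73e-05), and Rhox9, an X-linked homeobox gene with near copies (-2.61, SE 0.32, adjusted p = 0.000259).

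Another list held 21 genes tied to silencing of germline genes in body cells or to DNA methylation, called silencing genes below. It includes the TET enzymes, which oxidise methylated cytosine and are not silencers themselves. All of the 21 but Dnmt3l averaged at least 1 CPM in every group. Their summed level was 3802 to 4164 CPM in SAG GFP+, 3616 to 3784 CPM in RA GFP+ and 3876 to 4086 CPM in RA GFP- libraries. In SAG GFP+ relative to RA GFP+ cells 1 rose and 2 fell (9.78% and 14.8% of all tested genes), and 5 were called without SAG GFP+ replicate 1 or without RA GFP- replicate 1. Dnmt3l, the cofactor of de novo DNA methylation in germ cells and embryonic stem cells, averaged 0.552 ± 0.252 CPM in SAG GFP+, 36.2 ± 6.17 CPM in RA GFP+ and 149.1 ± 56.4 CPM in RA GFP- cells (log2 fold change -6.01, SE 0.37, edgeR adjusted p = 2.37e-06 for SAG GFP+ over RA GFP+, and -2.04, SE 0.27, adjusted p = 0.000471 for RA GFP+ over RA GFP-). Dnmt3a, a de novo methyltransferase, fell slightly in SAG GFP+ relative to RA GFP+ cells (-0.45, SE 0.10, adjusted p = 0.00671).

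Of the TET enzymes, which oxidise methylated cytosine, Tet1 rose in SAG GFP+ relative to RA GFP+ cells (log2 fold change 0.82, SE 0.23, edgeR adjusted p = 0.0235), a call that ended without RA GFP+ replicate 1 or 2 or SAG GFP+ replicate 3 (adjusted p up to 0.0936). In SAG GFP+ relative to RA GFP- cells 4 of the 21 rose and 4 fell (12.0% and 16.5% of all tested genes). In RA GFP+ relative to RA GFP- cells 1 of the 21 rose and 3 fell (8.49% and 8.43% of all tested genes), and a replicate block called 11. Without RA GFP+ replicate 1 the number called between the RA groups was 2, and without RA GFP+ replicate 2 it was 1. In RA GFP+ relative to RA GFP- cells Tet3 rose (0.70, SE 0.20, edgeR adjusted p = 0.0334), and Tet1 (-0.91, SE 0.23, adjusted p = 0.0183) and Tet2 (-1.51, SE 0.42, adjusted p = 0.0296) fell. These calls ended without RA GFP- replicate 2 (Tet3, Tet2) or 3 (Tet1, Tet2), or without RA GFP+ replicate 1 (Tet1, Tet2), 2 (each of the 3) or 3 (Tet3), with adjusted p up to 0.126 for Tet3, 0.0763 for Tet1 and 0.113 for Tet2.

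Germline genes can be set beside a related gene active in body cells by RPKM, which allows levels of different genes to be compared. The relative need not do the same work. Rec8 stood at 0.677% ± 0.182 of the level of Rad21, the mitotic kleisin, in SAG GFP+ cells, at 25.7% ± 2.15 in RA GFP+ cells and at 11.3% ± 2.74 in RA GFP- cells (SD, n = 3 each). Relative to Stag2, Stag3 stood at 5.36% ± 1.69 in SAG GFP+, 14.9% ± 4.35 in RA GFP+ and 26.6% ± 11.6 in RA GFP- cells. Relative to Smc1a, Smc1b stood at 0.278% ± 0.203 in SAG GFP+, 2.70% ± 0.553 in RA GFP+ and 5.83% ± 3.46 in RA GFP- cells. Of these 3 cohesin subunits, Rec8 had its highest mean share in RA GFP+ cells and the others in RA GFP- cells. Relative to Mov10, Mov10l1 stood at 0.637% ± 0.553 in SAG GFP+, 11.8% ± 2.42 in RA GFP+ and 6.06% ± 0.408 in RA GFP- cells. Mov10 itself averaged 9.59 CPM in SAG GFP+, 38.4 CPM in RA GFP+ and 107.6 CPM in RA GFP- cells. Mov10l1 averaged 3.33 CPM in RA GFP+ and 4.84 CPM in RA GFP- cells, so its higher share in RA GFP+ cells reflects the lower level of Mov10 there. Relative to the helicase Ddx3x, Ddx4 stood at 0.238% ± 0.0764 in SAG GFP+, 4.37% ± 0.847 in RA GFP+ and 2.08% ± 0.351 in RA GFP- cells. Nanos3 exceeded Nanos1 in one group, at 16.0% ± 8.47 in SAG GFP+, 13.6% ± 9.60 in RA GFP+ and 219.6% ± 46.4 in RA GFP- cells.

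Of the 16 somatic relatives, 2 rose and 2 fell in SAG GFP+ relative to RA GFP+ cells, and 1 rose and 2 fell in RA GFP+ relative to RA GFP- cells, where a replicate block called 6. The calls of the fit without a block were thus close, in either direction, to the shares over all tested genes given above. Mov10 fell in both comparisons (log2 fold change -2.0, SE 0.23, edgeR adjusted p = 9.84e-05 for SAG GFP+ over RA GFP+, and -1.49, SE 0.22, adjusted p = 0.00089 for RA GFP+ over RA GFP-). Nanos1 fell in SAG GFP+ relative to RA GFP+ cells (-1.08, SE 0.25, adjusted p = 0.00817), and Smc1a rose there (0.48, SE 0.11, adjusted p = 0.00802). Msh6, of mismatch repair, fell in RA GFP+ relative to RA GFP- cells (-0.88, SE 0.15, adjusted p = 0.00196). Stag2 rose in SAG GFP+ relative to RA GFP+ cells (0.37, SE 0.10, adjusted p = 0.0174) and in RA GFP+ relative to RA GFP- cells (0.42, SE 0.10, adjusted p = 0.012). The second call ended without RA GFP+ replicate 2 (adjusted p = 0.0618), and the first in 5 of 16 alternatives, among them without any one RA GFP+ replicate or SAG GFP+ replicate 2, with adjusted p up to 0.0829.

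**Figure D5:**
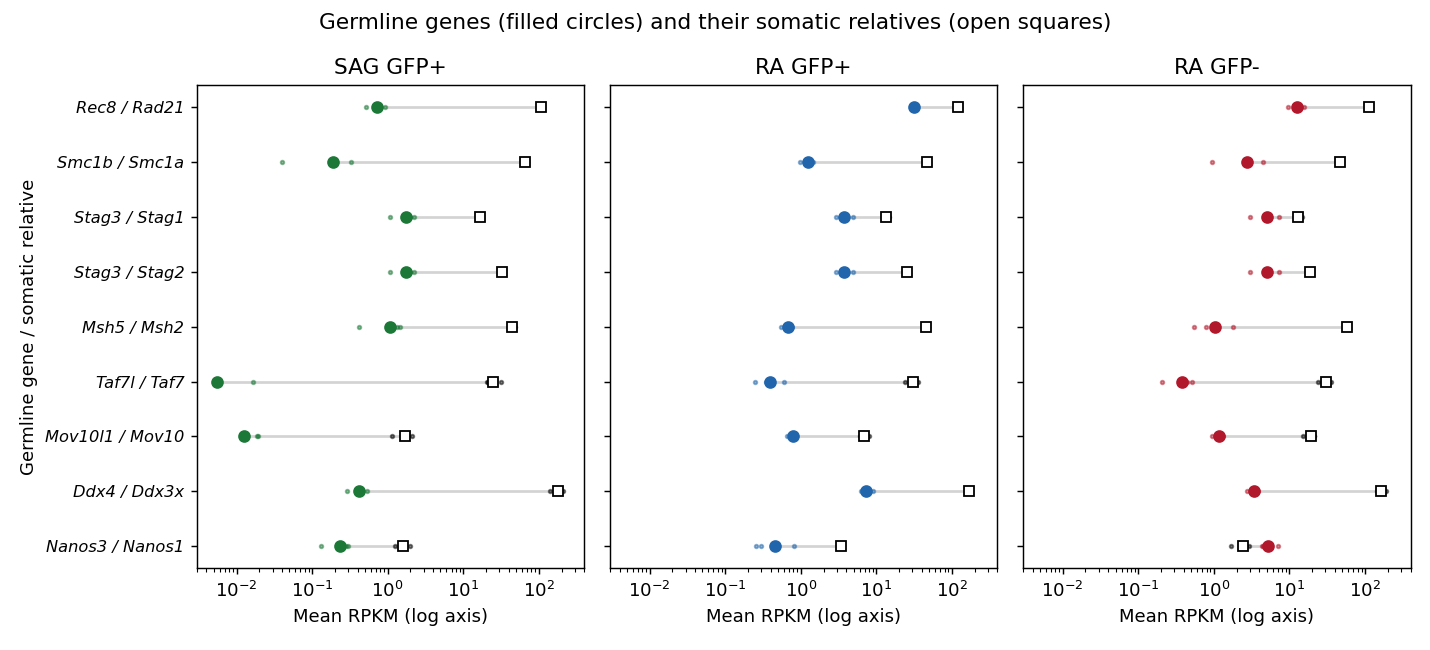
Mean RPKM (log axis) of germline genes (large filled circles) and their somatic relatives (open squares) in SAG GFP+, RA GFP+ and RA GFP- cells, with a small dot for each of the 3 libraries above 0. Mean levels of germline genes lie below those of their relatives, with the widest gap in SAG GFP+ cells for all pairs but Msh5 and Nanos3, and Nanos3 lies above Nanos1 in RA GFP- cells.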

How the data were processed

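Poly(A) RNA of 9 libraries was sequenced after a directional kit, per the labels' protocols. The authors deposited raw counts per Ensembl gene. The submitters' processing notes name Bowtie2 2.3.4.1, Subread 1.6.2 with featureCounts, Trim Galore 0.5.0 and the build GRCm38. Whether strand was used when counting is not given in the sources used here. Symbols and positions came from the annotation of the same build. edgeR 4.0.16 (R 4.3.3) fitted group means to all 9 libraries after TMM scaling and filterByExpr at a minimum count of 10. SE is the log2 fold change divided by the square root of F. The fit was tested on simulated data. Alternatives were DESeq2 1.42.0, its size factors, other filters, the compared groups alone, a replicate block and leaving out each library. The gene set and the companion lists were chosen with earlier results of these data known. The lists were written from general knowledge of function. Genes reaching 1 CPM in a group are given by library, others by counts, and of each companion list up to 3 called genes per direction with the smallest adjusted p. Deviations from group means of same-numbered RA GFP+ and RA GFP- libraries correlated at 0.273, 0.307 and 0.347, so the numbers were taken to pair these libraries. The main fit did not use this pairing, which entered only through the replicate block. Replicates are labelled biological, and p-values measure the spread between them.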

Additional observations from a re-analysis of the deposited data

How the results depend on the processing

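The counts of calls were recomputed under 16 alternatives, and no called gene of the 37 changed direction in those that fitted it. With the replicate block in the 2 groups compared, RA GFP+ over RA GFP- cells gave 2615 genes higher and 2625 lower over all genes, 12 germline and meiosis genes lower, and 10 other meiosis, 6 other piRNA, 13 regulator, 11 silencing and 6 somatic genes called. With the block in all 9 libraries, 3 other piRNA and 8 silencing genes were called there. For SAG GFP+ over RA GFP+ cells the numbers do not pair the libraries (correlations 0.111, -0.082 and 0.182). The block there left 1 germline and meiosis gene higher in either fit, 7 silencing genes called in either fit and 7 other meiosis genes called in the fit of the 2 groups. The correlations for SAG GFP+ with RA GFP- cells were 0.175, -0.022 and 0.242, and the block in the 2 groups left 1 gene higher, while the fit of the 2 groups without it left 0. In that comparison edgeR in all 9 libraries called 2 higher, with 25 of the 33 at an unadjusted p under 0.05. For SAG GFP+ over RA GFP+ cells, 5 silencing genes were called by DESeq2, without the filter and in the 2 groups alone, and without the filter 1 germline and meiosis gene was higher. For RA GFP+ over RA GFP- cells, 2 other piRNA genes were called by DESeq2 and in the 2 groups alone, and 6 without the filter.

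Leaving out each library gave 893 to 1684 genes higher and 890 to 1684 lower for RA GFP+ over RA GFP- cells over all genes, and 954 to 2092 higher for SAG GFP+ over RA GFP+ cells. Of the germline and meiosis genes, 4 to 7 were lower for RA GFP+ over RA GFP-, 1 to 2 higher for SAG GFP+ over RA GFP+ and 0 to 2 higher for SAG GFP+ over RA GFP- cells. For RA GFP+ over RA GFP- cells, 3 to 9 other meiosis, 0 to 2 other piRNA and 1 to 6 silencing genes were called, and for SAG GFP+ over RA GFP+ cells 2 to 5 silencing genes. The calls of 7 of 11 germline and meiosis genes held in every alternative for RA GFP+ over RA GFP-, 16 of 22 for SAG GFP+ over RA GFP+ and 18 of 25 for SAG GFP+ over RA GFP- cells. Those of Taf7l and Sycp1 held in both SAG comparisons wherever they were fitted, but some alternatives left these 2 genes out. The causes were not tested. Genes with under about 10 counts per library, such as Tex101, Syce3 and Asz1, allow no comparison at this depth.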
